A study of Mus musculus with 4 samples.

Results

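The RUNX transcription factor genes Runx1, Runx2 and Runx3 and Cbfb, the gene of their shared partner subunit, were examined in single-cell ATAC-Seq data from mouse long-term hematopoietic stem cells (LT-HSCs). Single-cell ATAC-Seq records, for each cell, where a transposase could cut open chromatin. The members were all peaks that overlap the GRCm38 body of 1 of the 4 genes or the 5000 bp before its most upstream start. This rule found 83 of 93513 peaks, with 30 at Runx1, 40 at Runx2, 10 at Runx3 and 3 at Cbfb. All 4 loci were open, and at Runx1 most counts lay in introns while at Cbfb nearly all lay at the promoter.

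RUNX proteins bind DNA through their Runt domain, and the CBFβ protein, which does not touch DNA itself, strengthens that binding. Runx1 is required for the first hematopoietic stem cells of the embryo and for megakaryocytes and lymphoid cells in the adult, Runx2 is the master regulator of bone formation, and Runx3 acts in T cells, in natural killer cells and in sensory neurons. Each of the 3 RUNX genes is read from a distal promoter, called P1, and a proximal promoter, called P2, which give proteins that differ at their first residues, and an intronic enhancer of Runx1 downstream of P1 is active in blood stem cells.

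The series held 4 samples of LT-HSCs from C57BL/6JRj mice, 1 for each of 4 groups. The groups were CLCA3A1high and CLCA3A1low LT-HSCs from mice aged 22 to 28 months, LT-HSCs of the same age without this division and LT-HSCs from mice aged 3 to 4 months, and each sample pooled 10000 sorted cells from 4 mice. CLCA3A1 is an accessory protein of chloride channels by which the old cells were divided with an antibody. The labels of the samples divided by CLCA3A1 name the table used here, and its cells carry a barcode suffix of 1 or 2, called barcode set 1 (818 cells) and barcode set 2 (636 cells). No label ties a suffix to a sample, so no difference between the sets was read as a difference between CLCA3A1high and CLCA3A1low cells. With 1 library per set the library and the sorted population cannot be told apart, cells are not replicates, and no p-value was computed. All intervals are nominal 95% intervals that cover counting error only and take each cut as an independent count. Of all values above 0, 88.7% were even, and where cuts come in pairs the intervals are too narrow.

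The peaks held 13050952 counts in set 1 and 9820094 in set 2, with medians of 13358.5 and 12755 counts per cell, and no barcode sequence occurred in both sets. Of 9 LT-HSC marker genes 8 held at least 20 counts, and the promoter of Mecom was open in 46.3% and 40.1% of cells. Of the genes that define other blood cells, Cd3e and Cd3g of T cells had no peak, Cd79a of B cells stood at 0 and 0.509 CPM (the counts of a gene's peaks per 1e6 counts in all peaks), and Mpo of myeloid cells at 3.29 and 5.40 CPM. Other genes of those lists were open, with Elane at 41.8 and 37.2 CPM, Klf1 at 42.8 and 35.1 CPM and Pax5 at 65.3 and 66.1 CPM. The summed CPM of the LT-HSC markers was 839 in set 1 and 718 in set 2, and that of 3 multipotent progenitor markers was 112 and 203. The sets thus differed in marker accessibility, and the part of this in the results below was not tested.

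Because RUNX genes are known to carry sites for RUNX proteins, the letters TGTGGT, the core of the RUNX site, were searched on both strands of the 250 bases before each start. The 3 distal promoters held it and neither the proximal promoters nor the Cbfb promoter did, so the windows of the distal promoters are printed beside Runx1 P2 and Cbfb. They lie at chr16:92826150-92826399 on the minus strand, chr17:44814798-44815047 on the minus strand, chr4:135120402-135120651 on the plus strand, chr16:92697329-92697578 on the minus strand and chr8:105170424-105170673 on the plus strand of GRCm38. Each is written along its gene and ends at the base before the annotated start, and capitals mark TGTGGT and the words for GATA factors (AGATAA), PU.1 (GAGGAA), other ETS factors (CCGGAA), AP-1 (TGACTCA) and E-box proteins (CAGCTG and CATCTG), each also as its reverse complement.
Runx1 P1: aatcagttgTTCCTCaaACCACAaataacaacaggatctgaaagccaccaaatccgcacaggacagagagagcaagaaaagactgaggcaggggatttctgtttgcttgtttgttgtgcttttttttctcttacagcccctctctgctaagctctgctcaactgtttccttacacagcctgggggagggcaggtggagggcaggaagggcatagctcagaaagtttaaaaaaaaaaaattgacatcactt
Runx2 P1: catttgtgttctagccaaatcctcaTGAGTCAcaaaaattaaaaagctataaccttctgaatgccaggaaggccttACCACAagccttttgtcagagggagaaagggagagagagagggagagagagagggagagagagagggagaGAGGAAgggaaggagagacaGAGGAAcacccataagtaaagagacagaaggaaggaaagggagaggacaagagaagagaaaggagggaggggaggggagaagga
Runx3 P1: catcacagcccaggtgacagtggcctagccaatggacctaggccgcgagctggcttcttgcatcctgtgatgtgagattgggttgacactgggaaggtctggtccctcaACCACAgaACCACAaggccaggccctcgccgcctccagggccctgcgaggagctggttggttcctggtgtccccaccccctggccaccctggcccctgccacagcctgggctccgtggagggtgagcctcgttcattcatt
Runx1 P2: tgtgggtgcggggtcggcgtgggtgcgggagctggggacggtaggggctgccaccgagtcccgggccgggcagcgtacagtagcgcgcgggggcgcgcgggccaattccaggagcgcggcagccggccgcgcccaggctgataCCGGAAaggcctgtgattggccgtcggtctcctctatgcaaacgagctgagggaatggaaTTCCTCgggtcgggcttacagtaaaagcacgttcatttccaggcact
Cbfb promoter: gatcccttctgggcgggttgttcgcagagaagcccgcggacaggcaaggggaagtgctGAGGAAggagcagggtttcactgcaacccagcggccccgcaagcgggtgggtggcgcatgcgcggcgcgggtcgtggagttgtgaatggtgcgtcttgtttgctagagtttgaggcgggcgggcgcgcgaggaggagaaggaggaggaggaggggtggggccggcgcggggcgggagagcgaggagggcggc

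The RUNX word stood once in the Runx1 P1 and Runx2 P1 windows and at 2 positions in the Runx3 P1 window, and it was absent from all 4 windows of the other promoters. Among 21911 protein-coding promoter windows of the same length, 12.98% held it. The PU.1 word occurred in 5 of the 7 windows of the members and in 22.9% of all promoter windows. Over whole peaks it was less frequent in the members, in 38.6% of the 83 against 55.0% of all peaks. In the central 300 bp the shares were 30.0% and 35.9%. A match describes letters and says nothing of binding. The sequences of 2 intronic peaks follow, Runx1 +3.5 kb because it was among the most open peaks of Runx1, and Runx2 +160.0 kb because its level differed most between the sets among members with at least 100 counts. Peaks are named by the distance of their centre from the most upstream start of the gene. Shown are the 300 bases of each peak with the most words, at chr16:92822170-92822469 and chr17:44654468-44654767, both on the plus strand with the same capitals.
Runx1 +3.5 kb: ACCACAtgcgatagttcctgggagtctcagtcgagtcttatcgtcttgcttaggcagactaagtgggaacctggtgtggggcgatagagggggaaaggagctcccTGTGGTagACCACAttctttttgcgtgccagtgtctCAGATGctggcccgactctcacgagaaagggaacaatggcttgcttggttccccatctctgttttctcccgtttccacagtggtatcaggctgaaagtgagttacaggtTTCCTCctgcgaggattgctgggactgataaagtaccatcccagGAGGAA
Runx2 +160.0 kb: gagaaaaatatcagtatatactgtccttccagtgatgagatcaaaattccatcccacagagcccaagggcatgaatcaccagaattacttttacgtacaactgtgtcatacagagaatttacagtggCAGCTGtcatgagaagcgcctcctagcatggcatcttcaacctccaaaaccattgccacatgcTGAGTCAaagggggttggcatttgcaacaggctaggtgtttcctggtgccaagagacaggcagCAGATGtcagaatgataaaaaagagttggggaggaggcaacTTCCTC

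The window of the Runx1 peak held 3 RUNX words, and the window of the Runx2 peak held none. Both windows were chosen by their number of words of all kinds, and the whole peaks held 7 and 1 RUNX words. Over whole peaks, RUNX words numbered 2.78 per kb at Runx1 +3.5 kb, 2.60 at Runx1 P1, 1.51 at Runx1 +24.7 kb and 3.09 at Runx3 P1, against 0.907 per kb over all peaks. They numbered 0.722 per kb at Runx1 +204.4 kb, the Runx1 peak of highest CPM, 0.593 at Runx2 P2 and 0.260 at Runx1 P2, and the Cbfb promoter peak held none. Over all 83 members the density was 1.16 per kb, and 20 of the 60 members of at least 300 bp held the word in their central 300 bp (33.3%), as did 26.7% of 75672 peaks of that width.

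At Runx1 (chr16:92601466-92826149, minus strand), which encodes the RUNX protein of blood stem cells, the 30 peaks summed to 320.1 CPM in set 1, with an interval of 310.5 to 330.0, and to 323.3 CPM in set 2, with an interval of 312.2 to 334.8. The locus stood at the 99.7th percentile of summed CPM among protein-coding loci, a sum that also grows with the length of a gene. The log2 ratio of set 1 over set 2, computed here and below on CPM + 1, was -0.01 with an interval of -0.08 to 0.05. At least 1 Runx1 peak was open in 84.2% of the cells of set 1 and 80.03% of those of set 2. The whole locus was thus equally accessible in both sets within counting error. Its 27 intronic peaks summed to 243.4 and 237.6 CPM, with a log2 ratio of 0.03 between -0.04 and 0.11, and P1 and P2 together held 24.2% of the counts of the locus.

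The peak of the distal promoter P1 (chr16:92824907-92827212) had 38.0 CPM in set 1, between 34.7 and 41.5, and 39.8 CPM in set 2, between 36.0 and 44.0. The peak of the proximal promoter P2 (chr16:92696532-92700378), whose start lies 128.8 kb downstream, had 35.7 CPM in set 1, between 32.5 and 39.1, and 43.1 CPM in set 2, between 39.1 and 47.4. Both promoters were thus open at about the same level per peak, and both stood at the 67.8th percentile of CPM among 16270 protein-coding promoter peaks. P1 had a log2 ratio of -0.07 between -0.25 and 0.12. P2 was lower in set 1 with a ratio of -0.26 between -0.45 and -0.08, and its ratio was -0.09 when each cell was counted once. P1 was open in 23.8% of the cells of set 1 and 22.5% of those of set 2, and P2 in 22.0% and 22.5%. Per kb of peak, the scale on which peaks of unequal width are compared, P1 had 16.8 CPM per kb, between 15.7 and 18.0, and the wider P2 had 10.1, between 9.45 and 10.8.

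**Figure D1:**
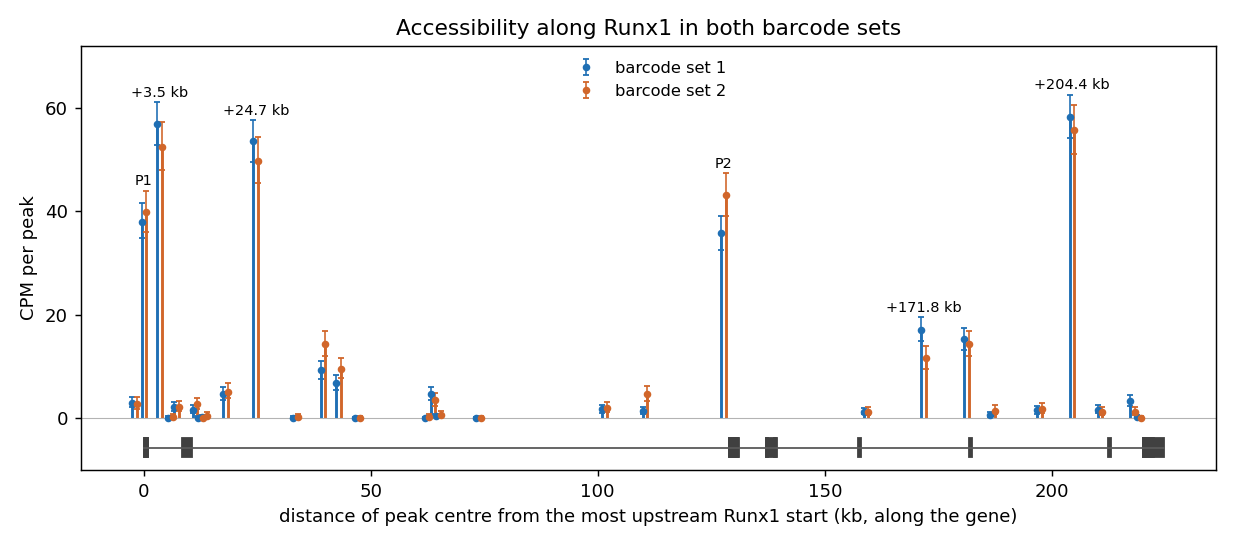
CPM per peak (vertical axis) against the distance of the peak centre from the most upstream Runx1 start in kb along the gene (horizontal axis), with barcode set 1 in blue and set 2 in orange, drawn slightly apart, exact 95% Poisson intervals as bars and annotated exons as dark boxes. The peaks at +3.5, +24.7 and +204.4 kb stand above both promoters in both sets.

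The intronic counts of Runx1 were concentrated in a few peaks. The peak at +204.4 kb (chr16:92620342-92623113), in intron 6 of the longest transcript, had 58.2 CPM in set 1 and 55.6 in set 2. The peak at +3.5 kb (chr16:92821397-92823913), just downstream of P1 in intron 2, had 56.8 and 52.4 CPM. The peak at +24.7 kb (chr16:92800484-92802470), also in intron 2, had 53.5 and 49.7 CPM. It was chosen as the Runx1 peak nearest the position taken for the intronic blood stem cell enhancer. This peak spans 23.2 to 25.2 kb downstream of the P1 start codon. These 3 peaks held 68.0% of the intronic counts and 52.6% of all Runx1 counts in set 1 and 48.8% in set 2, and none of them differed between the sets beyond counting error, with log2 ratios of 0.07, 0.11 and 0.10. They were open in 31.4% and 29.1%, in 31.2% and 27.7% and in 33.0% and 30.0% of cells, respectively. Per kb of peak the order was Runx1 +24.7 kb with 26.1 CPM per kb, Runx1 +3.5 kb with 21.8, Runx1 +204.4 kb with 20.6, P1 with 16.8 and P2 with 10.1. The intervals of the peaks at +3.5 and +204.4 kb overlapped (20.6 to 23.1 and 19.5 to 21.7), so their order was not resolved.

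The remaining named Runx1 peaks were weaker. The peak at +39.5 kb had 9.27 CPM in set 1 and 14.4 in set 2, with a log2 ratio of -0.58 between -0.91 and -0.25. The peak at +42.9 kb, further into the same intron, had 6.82 and 9.57 CPM, with a ratio of -0.44 between -0.82 and -0.05. The peak at +171.8 kb, after P2, went the other way with 17.2 and 11.6 CPM and a ratio of 0.53 between 0.22 and 0.84. The 9 intronic peaks after P2 together had a ratio of 0.16 between 0.04 and 0.28, and the 18 between P1 and P2 a ratio of -0.05 between -0.15 and 0.05. By CPM these intronic differences were therefore in both directions and added up to nearly no difference over the locus. With all cells thinned to 4899 counts the ratio at +39.5 kb was -0.12, and with each cell counted once that at +42.9 kb was -0.15. At +171.8 kb the ratio was 0.26 in thinned cells and 0.34 with each cell counted once. Counted once per cell, none of the 8 Runx1 peaks outside promoters with at least 100 counts had an interval that excluded 0. The peaks at +18.1, +63.7 and +181.2 kb had log2 ratios of -0.11, 0.37 and 0.08, each with an interval that included 0.

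At Runx2 (chr17:44495987-44814797, minus strand), which encodes the RUNX protein of osteoblasts, the 40 peaks summed to 251.2 CPM in set 1 and 285.3 CPM in set 2, the 99.3rd percentile of protein-coding loci, with a log2 ratio of -0.18 between -0.26 and -0.11. The ratio was -0.093 with each peak counted once per cell. The gene shares its territory with others, which limits what can be read as Runx2. Its peak with the second highest pooled CPM, at +37.5 kb with 42.2 and 53.1 CPM, lies at the start of Supt3, a transcription cofactor gene, and without it the locus ratio was -0.15. The P2 peak (chr17:44733804-44738866) also covers the start of the antisense gene Runx2os1, and these reads cannot be told apart. The start of another antisense gene, Runx2os2, lies within 1000 bp of the peak at +104.7 kb.

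The P1 peak of Runx2 (chr17:44814086-44815276) had 14.4 CPM in set 1, between 12.4 and 16.6, and 11.1 CPM in set 2, between 9.11 and 13.4. The P2 peak had 43.4 CPM in set 1, between 39.9 and 47.1, and 52.6 CPM in set 2, between 48.2 and 57.4. P1 was thus less open than P2 in both sets and stood at the 30.2nd percentile of promoter peaks against the 76.2nd for P2. Per kb of peak the pooled values were 10.9 CPM per kb for P1, between 9.70 and 12.2, and 9.35 for P2, which is 5063 bp wide, between 8.80 and 9.93. These intervals overlapped, and the order was not the same in both sets, with 12.1 for P1 and 8.57 for P2 in set 1 and 9.32 and 10.4 in set 2. P1 was open in 10.8% and 7.70% of cells and P2 in 25.8% and 25.9%. The log2 ratios were 0.35 between 0.03 and 0.67 for P1 and -0.27 between -0.44 and -0.10 for P2, and they were 0.03 for P1 in thinned cells and -0.07 for P2 with each cell counted once.

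The intronic peak Runx2 +160.0 kb (chr17:44654212-44655392) had the largest difference in log2 ratio between the sets among members with at least 100 counts. It had 20.3 CPM in set 1, between 17.9 and 22.9, and 39.2 CPM in set 2, between 35.4 and 43.3, with a log2 ratio of -0.92 between -1.14 and -0.70. It was open in 13.1% of the cells of set 1, between 10.9% and 15.6%, and in 22.2% of the cells of set 2, between 19.0% and 25.6%. The intervals of both measures did not overlap. After every cell was thinned to 4899 counts, which left 749 and 560 cells and left out 69 and 76 shallower ones, the shares were 6.54% and 14.3%, and the log2 ratio stayed between -1.09 and -0.80 under the alternatives tried. The other intronic peaks of Runx2 were mixed. The peak at +31.4 kb had 6.90 and 3.56 CPM (log2 ratio 0.79 between 0.31 and 1.27), and Runx2 +142.1 kb, which lay outside the rule for named peaks and was chosen after its values were seen, went the other way with 7.28 and 13.2 CPM (-0.78 between -1.14 and -0.43). The intervals of the ratios included 0 for +104.7 kb at 14.6 and 13.3 CPM (0.12) and for +201.1 kb at 26.1 and 28.0 CPM (-0.10), the last of these open in 17.4% and 14.6% of cells.

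**Figure D2:**
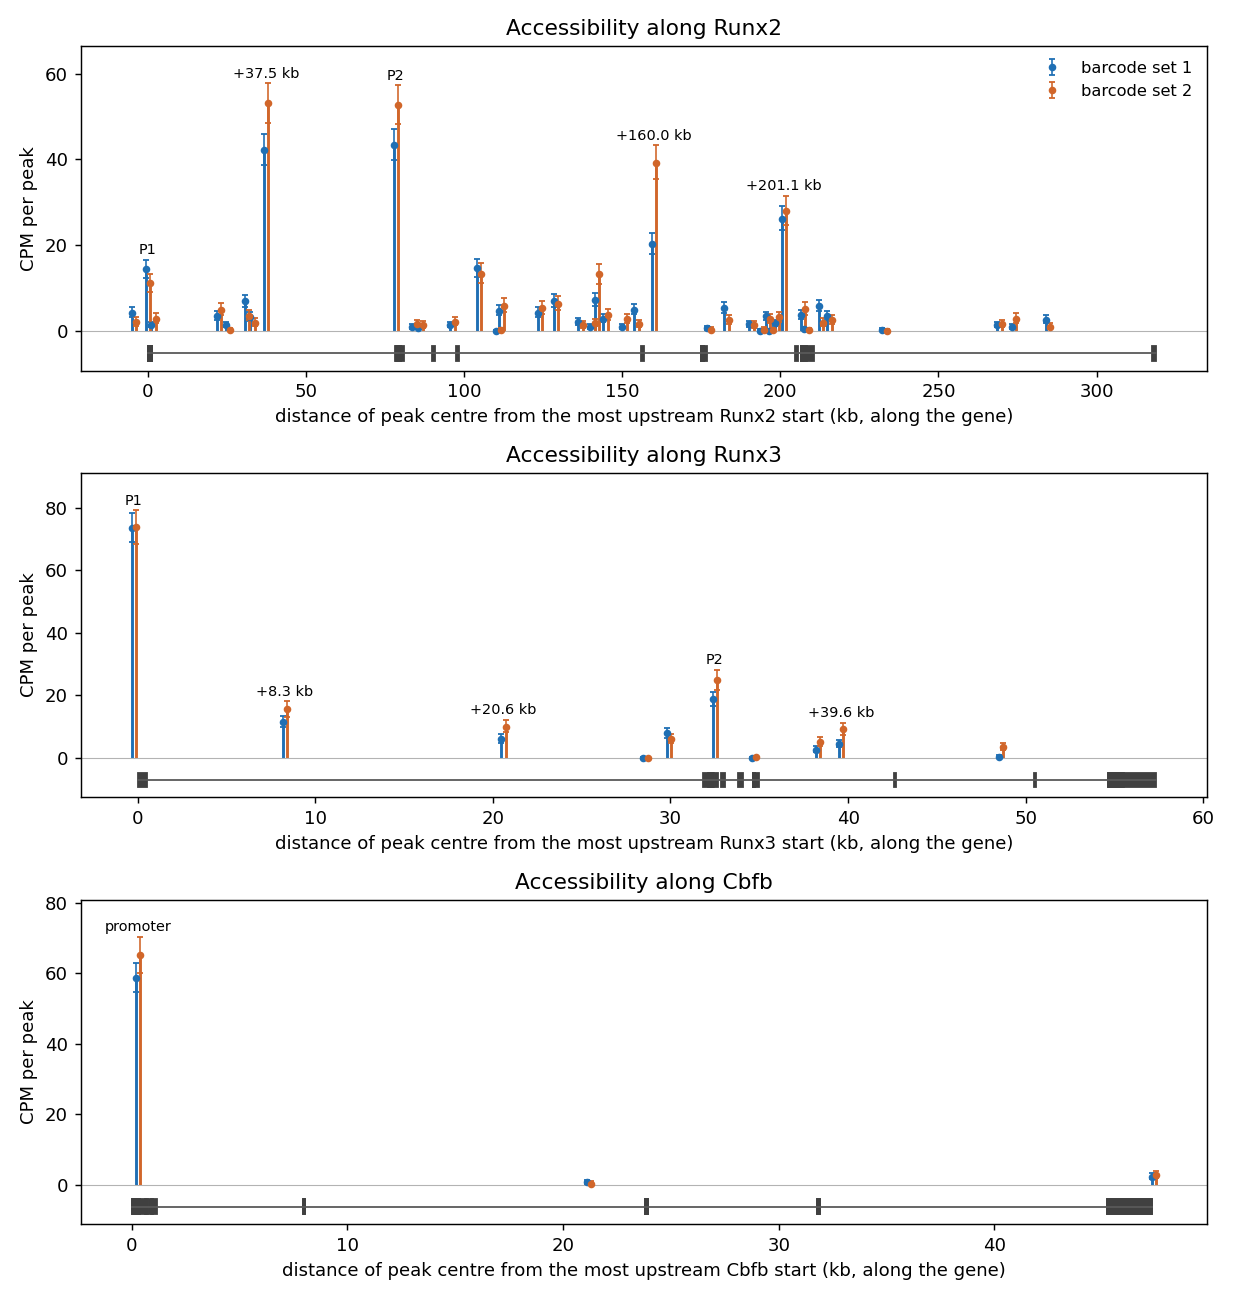
CPM per peak (vertical axes) against the distance of the peak centre from the most upstream start of Runx2, Runx3 and Cbfb in kb (horizontal axes), with barcode set 1 in blue and set 2 in orange, drawn slightly apart, exact 95% Poisson intervals as bars and annotated exons as dark boxes. Runx2 +160.0 kb stands at 20.3 CPM in set 1 and 39.2 CPM in set 2, and at Runx3 and Cbfb the highest peak lies at the most upstream start.

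At Runx3 (chr4:135120652-135177990, plus strand), which encodes the RUNX protein best known from cytotoxic lymphocytes, the promoters held 70.4% of the counts. Its P1 peak (chr4:135119773-135121066) was the most accessible member, with 73.6 CPM in set 1, between 69.1 and 78.4, and 73.7 CPM in set 2, between 68.5 and 79.3. Open in 38.4% and 38.2% of cells and at the 90.8th percentile of promoter peaks, it had the same level in both sets within counting error. Per kb of peak it had 56.9 CPM per kb, above the interval of every other named peak compared on that scale, and Runx2 +37.5 kb followed with 30.9. The start of the noncoding gene Gm16225 lies within 1000 bp of this peak, and its reads cannot be told apart from those of Runx3.

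Away from P1, the P2 peak and the sum of the intronic peaks of Runx3 had a higher CPM in set 2. The P2 peak (chr4:135151690-135154580) had 18.7 CPM in set 1, between 16.4 and 21.2, and 24.8 CPM in set 2, between 21.8 and 28.2, with a log2 ratio of -0.39 between -0.64 and -0.14 that was 0.04 in thinned cells. The 7 intronic peaks summed to 32.9 and 49.1 CPM, a ratio of -0.56 between -0.75 and -0.38, and at least 1 of them was open in 21.9% and 26.6% of all cells and in 10.9% and 15.5% of thinned cells. The P1 peak did not share this difference. By single peaks, +8.3 kb had 11.5 and 15.5 CPM (-0.40 between -0.71 and -0.09), +20.6 kb had 6.13 and 9.98 CPM (-0.62 between -1.01 and -0.23) and +39.6 kb had 4.52 and 9.16 CPM (-0.88 between -1.30 and -0.46). With each cell counted once these ratios were -0.32, -0.35 and -0.75. Of the 4 Runx3 peaks outside promoters with at least 100 counts, 3 had intervals below 0, and 1 did with each cell counted once. The peak at +29.9 kb had 7.82 and 6.01 CPM, a ratio of 0.33 between -0.08 and 0.75. Summed over the locus the ratio was -0.24 between -0.34 and -0.13, from 125.3 and 147.8 CPM.

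At Cbfb (chr8:105170674-105217989, plus strand), which encodes the non-DNA-binding subunit that all 3 RUNX proteins use, the promoter peak held 95.5% of the counts. The promoter peak (chr8:105169677-105172303) had 58.6 CPM in set 1, between 54.5 and 62.9, and 65.1 CPM in set 2, between 60.1 and 70.3. It was open in 34.0% of the cells of each set and had a log2 ratio of -0.15 with an interval that just included 0. The 2 other Cbfb peaks were close to the limit of detection, with 0.613 and 0.305 CPM in the intronic peak at +21.2 kb and 2.22 and 2.65 CPM in the exonic peak at +47.4 kb. The start of the small nuclear RNA gene Gm22063 also lies within 1000 bp of the promoter peak.

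**Figure D3:**
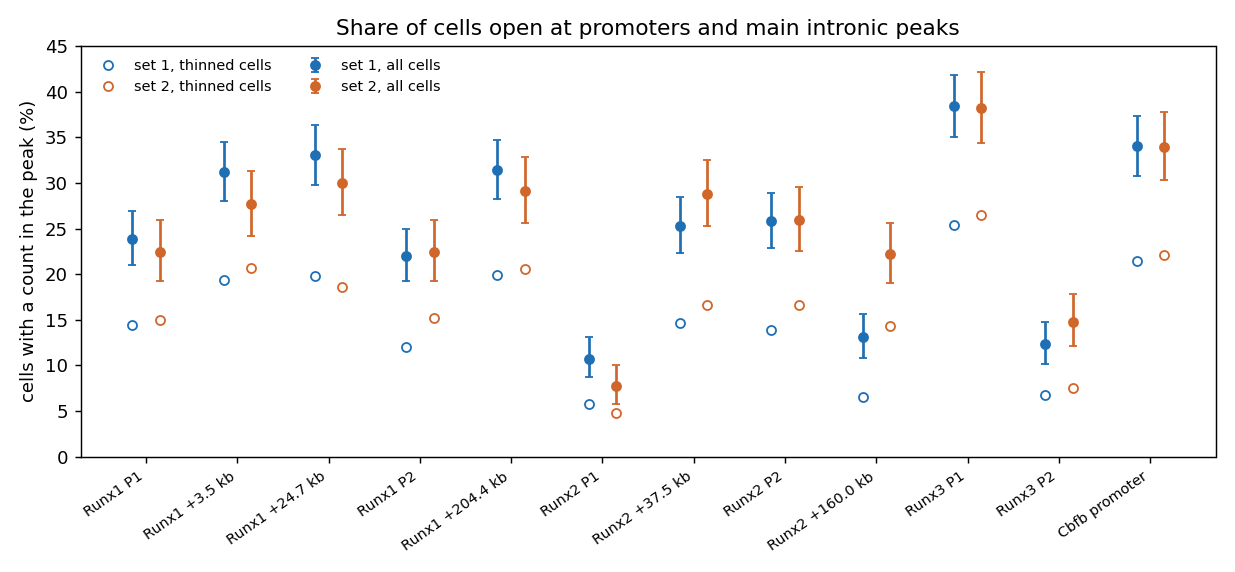
Share of cells with at least 1 count in the peak, in percent (vertical axis), for promoters and main intronic peaks (horizontal axis) in barcode set 1 (blue) and set 2 (orange), with filled points for all cells with exact 95% binomial intervals and open points for cells thinned to 4899 counts. Runx2 +160.0 kb is the peak whose intervals lie apart, at 13.1% and 22.2%.

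The shares of open cells depended on depth. In set 1 the Runx1 P1 peak was open in 12.8% of the shallowest tertile of cells and 36.4% of the deepest, and Runx3 P1 in 24.2% and 55.9%. In set 2 the same shares were 9.43% and 39.2% for Runx1 P1 and 14.6% and 59.4% for Runx3 P1. A cell with no count in a peak was therefore not read as a closed cell. For scale, the promoter of Csf1r, a monocyte and macrophage gene, was open in 0.611% and 1.73% of cells. The other myeloid markers differed among themselves. Mpo stood at 0.978% and 2.20%. Ms4a3 had no peak at its promoter, so openness there was not measured. Elane was open in 23.6% and 18.9%, near the level of Runx1 P1 over all cells (23.8% and 22.5%). After thinning, Runx1 P1 was open in 14.4% and 15.0% of cells and Runx1 P2 in 12.02% and 15.2%.

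Whether single cells opened the Runx1 elements together was examined in thinned cells. Both promoters of Runx1 were open in 13 of 749 cells of set 1 (1.74%), and the product of their separate shares was 1.73%. Over the 28 pairs that 8 elements allow (Runx1 P1, P2, +3.5, +24.7 and +204.4 kb, Runx2 P2, Runx3 P1 and the Cbfb promoter) the phi coefficient, a correlation of open and not open, lay between -0.090 and 0.079 in set 1 and between -0.080 and 0.089 in set 2. The product of the shares lay inside the interval of the observed joint share in 27 of 28 pairs in set 1 and in 28 of 28 in set 2. No joint opening of these elements was detectable at this depth. Of the 5 Runx1 elements, none was open in 39.4% and 37.0% of thinned cells, 1 in 39.7% and 40.7%, 2 in 17.4% and 18.2%, and all 5 in no thinned cell.

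Across the members, 64 of 83 peaks held at least 20 counts in all and were compared between the sets; 19 held fewer, of which 3 held none. Of the 64, 7 were over 1.5-fold higher in set 1 (10.9%) and 11 over 1.5-fold higher in set 2 (17.2%), where of all 79625 peaks with as many counts 14.8% and 15.3% were. The members therefore differed between the sets about as often as peaks did in general. None of the 7 promoter peaks passed 1.5-fold, against 6.04% and 4.81% of protein-coding promoter peaks. By gene, the counts higher in set 1 and in set 2 were 1 and 1 of 21 at Runx1, 6 and 6 of 33 at Runx2, 0 and 4 of 8 at Runx3 and 0 and 0 of 2 at Cbfb. Outside promoters 7 and 11 of 57 members passed (12.3% and 19.3%), beside 16.9% and 17.9% of all such peaks. Among members outside promoters with at least 100 counts, 1 and 4 of 21 passed (4.76% and 19.0%), where 15.5% and 14.7% of such peaks did in the whole table. In these 2 comparisons the members leave out promoters of their own gene only, so Runx2 +37.5 kb at the Supt3 start is kept. The shares over all peaks leave out promoters of every protein-coding gene.

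**Figure D4:**
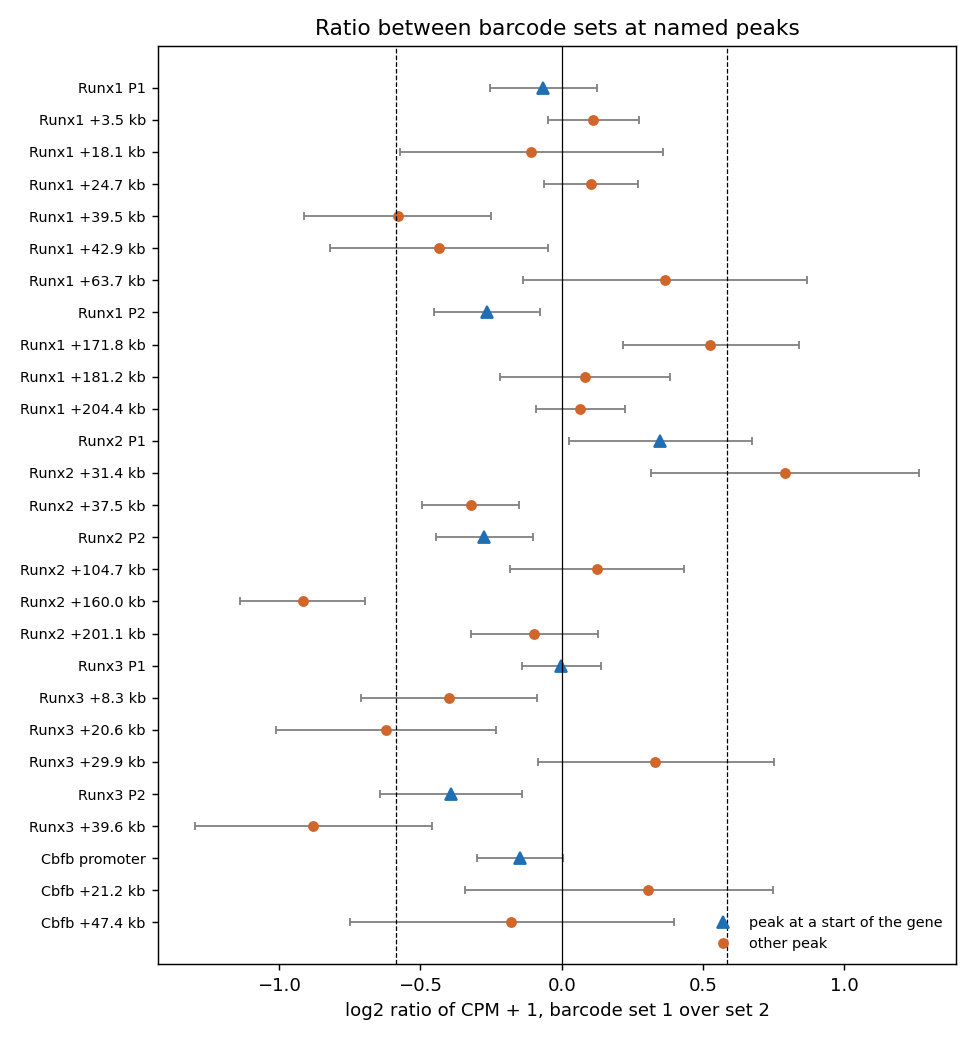
Log2 ratio of CPM + 1 in barcode set 1 over set 2 (horizontal axis) for each named peak (vertical axis), with exact 95% conditional intervals as bars, triangles for peaks at a start of the gene, circles for other peaks and dashed lines at 1.5-fold. The whole interval of Runx2 +160.0 kb, -1.14 to -0.70, lies past 1.5-fold, and Runx3 P1 and the 3 most open intronic peaks of Runx1 have intervals that include 0.

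The median log2 ratio was -0.01 over the Runx1 members, -0.26 over those of Runx2 and -0.51 over those of Runx3, beside 0.02 over all peaks compared, whose middle 95% ran from -1.47 to 1.28. The largest differences were in peaks of few counts. Runx3 +48.6 kb, the most extreme member and outside the rule for named peaks, had 5 counts in set 1 and 34 in set 2 (0.383 and 3.46 CPM). Intervals lay above 0 in 9 members and below 0 in 18, and in 5 and 8 when each cell was counted once. For the 7 promoter peaks these numbers were 1 and 3, and 0 and 0 when each cell was counted once. Of all values above 0, 88.7% were even, and intervals that take each cut as independent are too narrow where cuts come in pairs. The part of this in the lower numbers was not tested. As loci, all 4 genes were within 1.5-fold, a line that 4.62% of 16965 protein-coding loci passed with set 1 higher and 3.61% with set 2 higher.

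**Figure D5:**
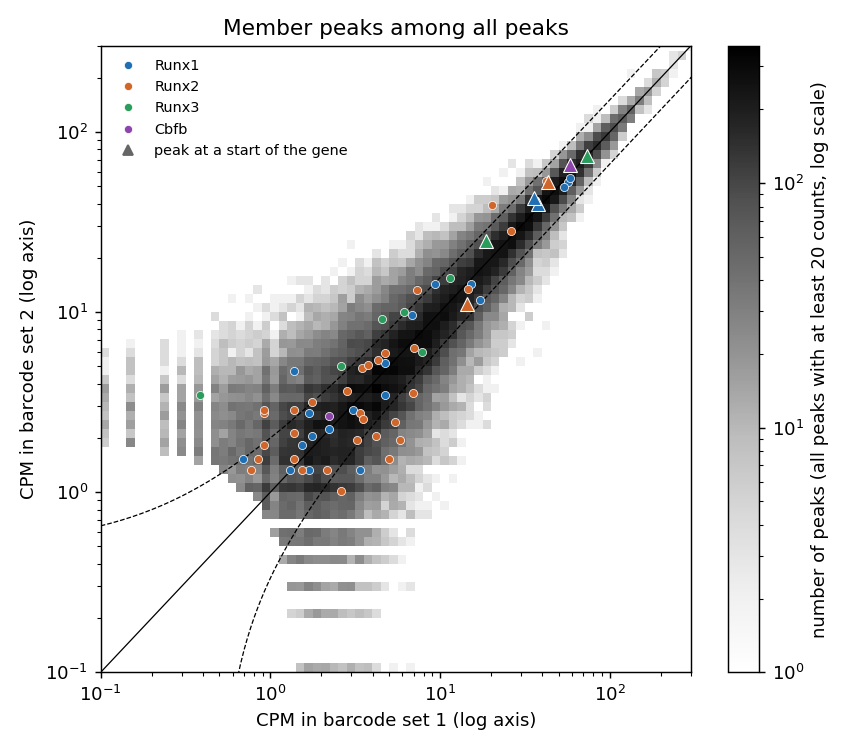
CPM of each peak in barcode set 1 (horizontal log axis) and set 2 (vertical log axis), with all peaks of at least 20 counts as grey density and the members as coloured points, triangles at starts of the genes, the line of equality solid and 1.5-fold on CPM + 1 dashed. The 7 member triangles lie between the dashed lines, and Runx2 +160.0 kb lies above them at 20.3 and 39.2 CPM.

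Of 21 genes of RUNX cofactors, corepressors and modifiers, 2 were over 1.5-fold higher in set 1 and none in set 2, beside 4.62% and 3.61% of all 16965 protein-coding loci. Runx1t1, the gene of the corepressor ETO known from its fusion to RUNX1 in leukemia, had 102.8 and 56.4 CPM over its locus, a log2 ratio of 0.85 between 0.71 and 1.00. Sin3b, a scaffold of histone deacetylase complexes, had 66.7 and 43.4 CPM, a ratio of 0.61 between 0.44 and 0.78. The other 19 were within 1.5-fold, including Cbfa2t3, a homologue of Runx1t1 (262.7 and 262.4 CPM, 0.0017), and the median of the list was 0.04 beside 0.0036 over all protein-coding loci. Wwtr1, the gene of TAZ, named here after its value was seen because TAZ is the subject of the study and a known coactivator of RUNX2, had 140.0 and 103.6 CPM, a ratio of 0.43 between 0.32 and 0.54.

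Of 28 genes that RUNX proteins are known to bind or regulate in blood cells, 26 held at least 20 counts. Of these, 1 was over 1.5-fold higher in set 1 and 2 in set 2, beside the same 4.62% and 3.61% of all loci. Gfi1, a repressor that restrains stem cell proliferation, was higher in set 2 with 33.0 and 57.7 CPM (-0.79 between -0.97 and -0.61), as was Csf2, the gene of the cytokine GM-CSF, with 10.4 and 19.1 CPM (-0.82 between -1.12 and -0.52). The other 23 were within 1.5-fold, among them Spi1, the gene of PU.1, with 103.7 and 98.9 CPM (0.07), and the median was 0.03. Among the LT-HSC markers, Procr and Slamf1 were higher in set 1.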

How the data were processed

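Single-cell ATAC-Seq was measured in 4 samples, 1 per group. Per the labels, the authors processed reads with Cell Ranger ATAC 1.2.0 on mm10 (GRCm38), and the deposited table holds raw counts of transposase cuts per peak and cell. The table with peak names was used; the table of the young and old samples has rows without peak names and was not used here. The members and gene lists were chosen with earlier results of these data known. Peaks were assigned to genes of GENCODE M21, and a promoter is a peak within 1000 bp of a protein-coding start. Named peaks were those at starts, those of highest CPM and those of largest ratio with at least 100 counts. The Runx1 peak nearest the position taken for the intronic enhancer was also named. CPM was taken over all peaks, with exact Poisson intervals. Shares of cells have exact Clopper-Pearson intervals, and log2 ratios on CPM + 1 have exact conditional binomial intervals. All cover counting error only and are too narrow where cuts come in pairs. Comparisons needed at least 20 counts and no test was made, since each set is 1 library. Doublets were not called, and the 57 cells of over 3 times the median counts were left out in an alternative. Scripts (Python 3.11.15, numpy 2.4.6, scipy 1.17.1) were tested on simulated data. Alternatives were other size factors, pseudocounts, count minimums, windows, thinning and 1 count per cell and peak. The alternative without the Supt3 start peak was chosen after seeing the data. Sequences were read from GRCm38. Some items are not reported here.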

Additional observations from a re-analysis of the deposited data

How the results depend on the processing

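No paired analysis was possible because the barcode sets carry no replicate numbers and no test was made. The log2 ratios of the 4 loci and of the Runx1 promoters and introns moved by less than their intervals in 44 of 46 values. The exceptions were the Runx2 locus at -0.093 with each peak counted once per cell, and the Cbfb locus at 0.10 in thinned cells, where the sign changed on a difference whose interval included 0, and the cause was not tested. Of 125 values for named peaks, 114 moved by less than their intervals, and none of those past 1.5-fold changed sign. Runx3 P2, whose interval lay below 0 at -0.39, was at 0.04 in thinned cells, and the cause was not tested. With a pseudocount of 5 CPM, 2 members passed 1.5-fold with set 1 higher and 3 with set 2 higher, and with at least 50 counts 7 passed with set 2 higher. Thinning lowered the open shares to 14.4% and 15.0% for Runx1 P1, 12.02% and 15.2% for P2 and 61.8% and 61.6% for any intronic peak. The RUNX word was in 33.3% and the AP-1 word in 6.67% of members by their central 300 bp, where whole peaks gave 49.4% and 20.5%. Median-of-ratios scaling shifted log2 ratios by at most 0.024, and by less at peaks of low CPM. At Cbfb +21.2 kb the ratio moved from 0.305 to 0.298. Depth limits peaks of few counts most, and 19 members were not compared.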
